A study of Homo sapiens with 12 samples.

Results

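Among the transcripts that separated KMS-11 TKO cells with and without an NSD2 expression vector were those of 6 cadherin superfamily genes: CDH17, CDH2, DSG2, CELSR1, PCDH10 and PCDHB14. These genes were chosen because their levels had already been seen to differ between the groups, so their differences below are descriptions and carry no p-value. Where calls or their counts are given for these genes, they describe the comparisons and are no test of them. They are 6 of 113 cadherin superfamily genes and 6 of 60504 features in the deposited table, and all 6 passed the filter on low values, of which PCDHB14 passed it through the vector lines.

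Polyadenylated RNA was sequenced from 12 libraries, 3 biological replicates in each of 4 groups of human plasma cell line cells. All 4 groups carried the genotype KMS-11 WHSC1(+/-), where WHSC1 is the older symbol of NSD2, which methylates histone H3 at lysine 36. KMS-11 is a multiple myeloma line whose t(4;14) translocation drives NSD2, and the translocated allele is the one disrupted in TKO cells. The D1240A group held an expression vector for NSD2 with the p.D1240A substitution, the F1295A group one for NSD2 with p.F1295A, the WT group one for unsubstituted NSD2, and the TKO group no vector. No empty-vector line was analysed here, so the vector itself and the NSD2 it carries cannot be told apart in a comparison with TKO. The labels state neither the vector's promoter nor whether a line is 1 clone, and nothing says that replicates came from separate transductions, so the spread may be that of cultures of 1 line. The question behind the design is how the substitutions alter gene expression.

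Cadherins are cell surface proteins whose extracellular repeats bind calcium and usually pair with the same cadherin on the next cell. Classical cadherins such as N-cadherin hold the actin cytoskeleton through catenins, desmosomal cadherins hold intermediate filaments through plakoglobin and plakophilins, and protocadherins and the very large members signal through other partners. Plasma cells do not form epithelial junctions, yet N-cadherin and desmoglein 2 have both been described on myeloma cells.

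Values are FPKM, that is, fragments per kilobase of a gene relative to the total mapped, as deposited and then rescaled between libraries, so levels can be compared between genes per length. Log2 changes are of FPKM + 0.5 with the standard error of a fit over all 12 libraries, and the threshold for a call was an adjusted p of 0.05 (limma, Benjamini-Hochberg over 14391 tested genes). Low values stepped in units that put each library at an estimated 27.0 to 52.2 M fragments (M, 1e+06), and D1240A replicate 2 was the shallowest. D1240A replicate 2 also stood apart in its RNA classes, with 52.7% of all FPKM in ribosomal RNA, mitochondrial included, against 1.66% to 2.47% in the other libraries. As deposited, its values for other genes were low, and without rescaling the median log2 change of all genes was -0.10 in D1240A against WT. For the 6 genes, changes in D1240A are also given as deposited. NSD2 itself read 242.3, 259.3 and 250.3 FPKM in D1240A, 171.6, 161.3 and 159.4 in F1295A, 189.1, 187.6 and 194.9 in WT, and 58.93, 58.6 and 62.66 in TKO. The NSD2 level thus differed among the vector lines as well, and its part in the differences between them was not tested. In F1295A against WT the NSD2 call was lost as deposited (log2 change -0.24, adjusted p = 0.204 in limma). That call was also lost without F1295A replicate 2 or 3 or WT replicate 1 or 3.

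CDH17 encodes liver-intestine cadherin, which has a short cytoplasmic tail and does not bind catenins, and it is known mainly from intestinal and some pancreatic epithelium. It was the most abundant cadherin transcript in every vector line and a minor one in TKO. Its level was 107.8, 103.6 and 110.4 FPKM in D1240A, 94.37, 95.85 and 90.92 in F1295A, 79.21, 82.01 and 80.09 in WT, and 6.713, 6.846 and 6.46 in TKO. All 9 vector libraries lay above all 3 TKO libraries, and no 2 groups overlapped. Of all tested genes, 60.4% did not overlap in WT against TKO, 52.5% in D1240A against TKO and 55.7% in F1295A against TKO. Among the vector lines the share was 35.5% in D1240A against WT, 22.9% in F1295A against WT and 24.0% in D1240A against F1295A. Overlaps given below for the other genes are to be read beside these shares. The mean was 107.3 ± 3.42 FPKM in D1240A, 93.7 ± 2.53 in F1295A, 80.4 ± 1.43 in WT and 6.67 ± 0.196 in TKO (SD, n = 3 each), so that the order of the groups was D1240A, F1295A, WT and TKO. WT stood 12.05-fold above TKO by the ratio of means, a log2 change of 3.50 with a standard error of 0.035. That change was rank 15 from the highest among 14391 tested genes, and the changes of 3.91 in D1240A and 3.72 in F1295A against TKO were at ranks 9 and 10. In the WT group CDH17 lay above 90.6% of tested genes by level, and in the TKO group above 43.7%.

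CDH17 also differed among the vector lines, by much less. The log2 change was 0.41 in D1240A against WT, 0.22 in F1295A against WT and 0.19 in D1240A against F1295A. Without D1240A replicate 2 the changes in D1240A were 0.44 against WT and 0.22 against F1295A, and as deposited they were 0.29 and 0.10.

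**Figure D1:**
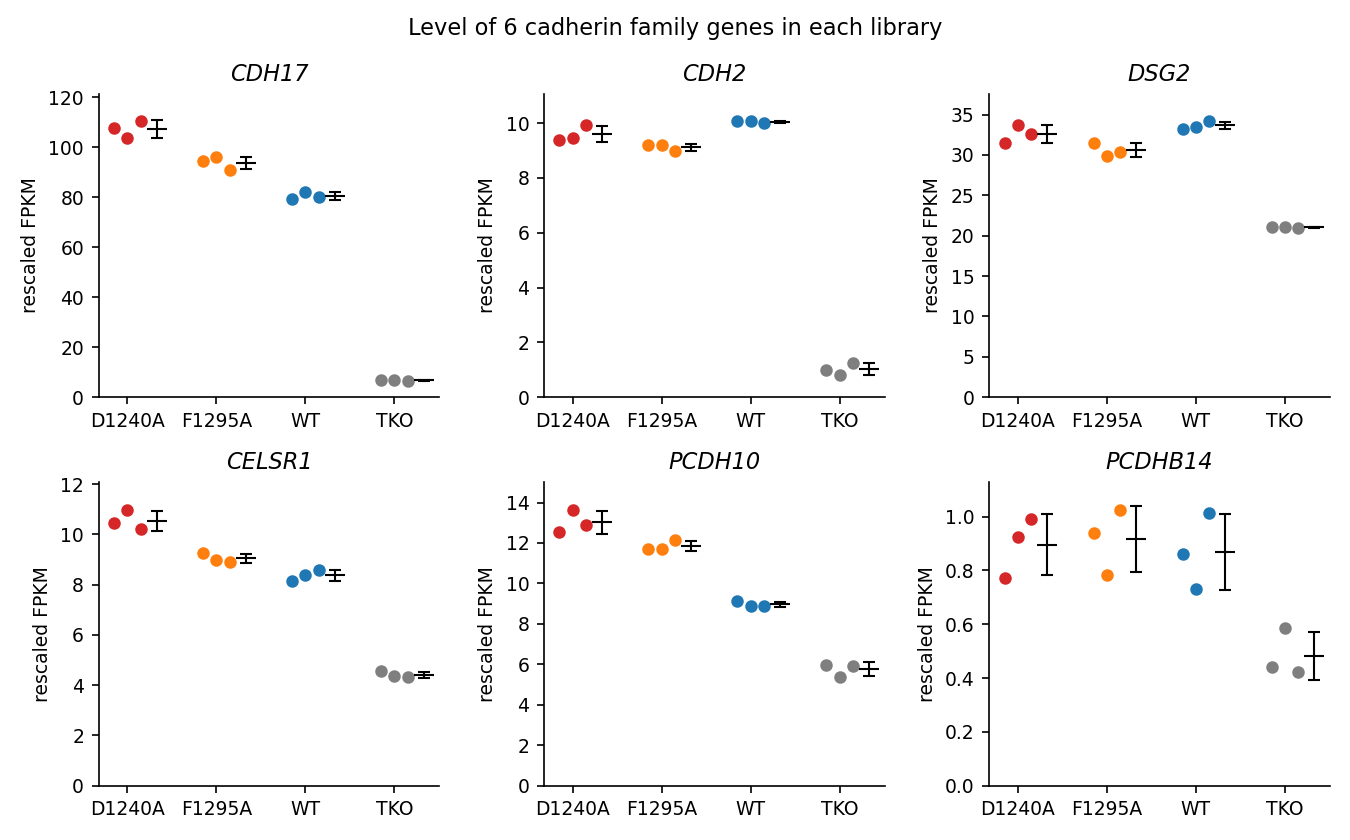
Rescaled FPKM (vertical axes, each from 0) of the 6 genes in each library, with 3 points per group and the mean ± SD beside them as black bars. CDH17 and CDH2 were much lower in TKO than in the vector lines (80.4 ± 1.43 and 10.05 ± 0.0343 FPKM in WT, 6.67 ± 0.196 and 1.03 ± 0.220 in TKO). DSG2, CELSR1, PCDH10 and PCDHB14 were also lower in TKO, but by smaller factors.

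CDH2 encodes N-cadherin, the classical cadherin of neural and mesenchymal cells, which binds beta-catenin and p120 catenin. It went with CDH17 against TKO but not among the vector lines. CDH2 read 9.383, 9.465 and 9.925 FPKM in D1240A, 9.189, 9.201 and 8.966 in F1295A, 10.07, 10.06 and 10.01 in WT, and 0.9945, 0.8246 and 1.261 in TKO. Every vector library was above every TKO library, and WT lay just above D1240A, which lay just above F1295A, with no overlap. WT stood 9.78-fold above TKO, with a log2 change of 2.80 (SE 0.085), and the changes against TKO were 2.73 in D1240A and 2.67 in F1295A. Since TKO was close to 1 FPKM, the log2 change in WT against TKO depended on the pseudocount and ran from 2.45 with 1 to 3.19 with 0.1. The log2 changes of -0.06 in D1240A (-0.18 as deposited) and -0.13 in F1295A against WT were not called, and that of D1240A against F1295A was 0.07 (-0.02 as deposited). By group mean CDH2 was slightly lower in both substituted lines than in WT, where CDH17 was higher, but neither of these CDH2 changes was called.

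DSG2 encodes desmoglein 2, the desmosomal cadherin found in simple epithelia and heart. It was expressed in all groups and differed from TKO by less than CDH17 or CDH2. DSG2 read 31.49, 33.67 and 32.65 FPKM in D1240A, 31.53, 29.85 and 30.36 in F1295A, 33.27, 33.51 and 34.19 in WT, and 21.11, 21.06 and 21.01 in TKO. All vector libraries lay above TKO, D1240A overlapped with both WT and F1295A, and F1295A lay below WT. The mean was 33.7 ± 0.478 FPKM in WT and 21.1 ± 0.0493 in TKO (SD, n = 3 each), 1.60-fold higher in WT with a log2 change of 0.66 (SE 0.034). Against TKO the log2 change was 0.62 in D1240A and 0.53 in F1295A. The log2 changes of -0.05 in D1240A (-0.17 as deposited) and -0.14 in F1295A against WT were not called, although the second was called when D1240A replicate 2 was left out of the fit.

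CDH2 and DSG2 lie 3320.6 kb apart on chromosome 18, with no other tested gene between them. Their promoters are shown because the same comparison gave changes of different size in these chromosomal neighbours, with that of PCDHB14, the least abundant of the 6 genes, beside them. Promoter sequences were matched for 3 of the 6 genes in RefSeq's GRCh38.p14 annotation and run from 250 bases before to 50 bases after the transcript start. Capitals mark 4 short motifs searched on both strands, namely the E-box CACCTG, the GC box GGGCGG, the CCAAT box and TATAAA, and no marked stretches overlap. The CDH2 window is chr18:28177081-28177380 on the minus strand, the DSG2 window chr18:31497927-31498226 on the plus strand and the PCDHB14 window chr5:141223093-141223392 on the plus strand.
CDH2: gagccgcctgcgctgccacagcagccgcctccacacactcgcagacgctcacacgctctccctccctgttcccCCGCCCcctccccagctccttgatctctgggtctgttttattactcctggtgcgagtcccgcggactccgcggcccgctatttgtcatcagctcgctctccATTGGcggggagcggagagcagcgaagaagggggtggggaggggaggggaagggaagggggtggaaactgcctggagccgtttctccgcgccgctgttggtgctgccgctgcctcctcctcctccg
DSG2: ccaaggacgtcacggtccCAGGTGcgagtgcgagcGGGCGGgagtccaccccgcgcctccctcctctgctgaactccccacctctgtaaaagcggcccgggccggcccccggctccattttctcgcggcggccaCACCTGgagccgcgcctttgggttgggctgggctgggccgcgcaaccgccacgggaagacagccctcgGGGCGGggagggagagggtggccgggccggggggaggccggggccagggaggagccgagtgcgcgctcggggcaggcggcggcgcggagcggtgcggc
PCDHB14: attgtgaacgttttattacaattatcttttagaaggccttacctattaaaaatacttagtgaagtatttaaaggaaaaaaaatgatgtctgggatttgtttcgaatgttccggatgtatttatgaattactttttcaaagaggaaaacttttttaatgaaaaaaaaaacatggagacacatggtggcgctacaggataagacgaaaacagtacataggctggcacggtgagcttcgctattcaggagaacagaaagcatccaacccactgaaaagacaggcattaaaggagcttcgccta

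The CDH2 window held 23 CpG dinucleotides and 67.0% G or C, with 1 GC box that starts 177 bases before the transcript start and 1 CCAAT box 76 bases before it. The DSG2 window was richer, at 36 CpG and 76.7% G or C, with E-boxes 232 and 116 bases and GC boxes 215 and 48 bases before the start. PCDHB14 had 8 CpG, 35.7% G or C and none of the 4 motifs, and the median over 35116 RefSeq promoters was 14 CpG and 58.7% G or C. Among those promoters 20.6% held CACCTG, 45.0% GGGCGG, 34.6% CCAAT and 11.5% TATAAA. CDH2 has another RefSeq start at chr18:28036592-28036891, with 4 CpG and 40.7% G or C. That window, not shown, holds TATAAA 32 bases and a CCAAT box 67 bases before its start. The deposited values do not separate the 2 starts.

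CELSR1 encodes a very large cadherin with a seven-pass membrane domain that acts in planar cell polarity, the shared orientation of cells within a sheet. It was higher in every vector line than in TKO and highest in D1240A. CELSR1 read 10.44, 10.99 and 10.21 FPKM in D1240A, 9.259, 8.97 and 8.916 in F1295A, 8.164, 8.372 and 8.575 in WT, and 4.552, 4.382 and 4.323 in TKO. No 2 groups overlapped, and the order was D1240A, F1295A, WT and TKO, as for CDH17. The log2 change was 0.85 (SE 0.048) in WT against TKO, 1.17 in D1240A against TKO and 0.96 in F1295A against TKO. Among the vector lines it was 0.32 in D1240A against WT, 0.11 in F1295A against WT, which was not called, and 0.21 in D1240A against F1295A. Without D1240A replicate 2 the changes in D1240A were 0.29 against WT and 0.18 against F1295A, and as deposited they were 0.20 and 0.12.

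PCDH10 encodes a delta protocadherin that binds the WAVE actin regulatory complex and is often silenced by promoter methylation in blood cancers. Of the 6 genes it had the largest log2 changes in both substituted lines against WT. PCDH10 read 12.52, 13.65 and 12.88 FPKM in D1240A, 11.7, 11.72 and 12.16 in F1295A, 9.112, 8.896 and 8.877 in WT, and 5.986, 5.36 and 5.93 in TKO. No 2 groups overlapped. The log2 change was 0.51 (SE 0.052) in D1240A against WT and 0.39 in F1295A against WT, set against 0.60 in WT against TKO. In D1240A and F1295A against TKO it was 1.11 and 0.98, so the mean level was 2.26-fold and 2.06-fold that of TKO. D1240A against F1295A gave 0.13 (0.04 as deposited), which was not called. Without D1240A replicate 2 the change in D1240A against WT was 0.48, and as deposited 0.40.

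PCDHB14 belongs to the clustered protocadherins, genes that lie in a row on chromosome 5 and label neurons with combinations of surface proteins. It was near the filter of 0.5 FPKM, with an estimated 92 to 197 fragments per library. PCDHB14 read 0.7728, 0.9231 and 0.9925 FPKM in D1240A, 0.9379, 0.7826 and 1.026 in F1295A, 0.8594, 0.7306 and 1.012 in WT, and 0.4399, 0.5849 and 0.4236 in TKO. All vector libraries lay above TKO, and the vector lines overlapped one another. The log2 change was 0.48 (SE 0.13) in WT, 0.51 in D1240A and 0.53 in F1295A against TKO, and between 0.05 and -0.02 among the vector lines. As deposited it was -0.045 in D1240A against WT, where the rescaled value was 0.03, and -0.08 in D1240A against F1295A. Its neighbours in the cluster are close copies, so fragments could be shared among them in counting, and its value is uncertain for that reason. Of the 53 clustered protocadherins PCDHB14 alone passed the filter, and 14 were listed at 0 in every library.

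**Figure D2:**
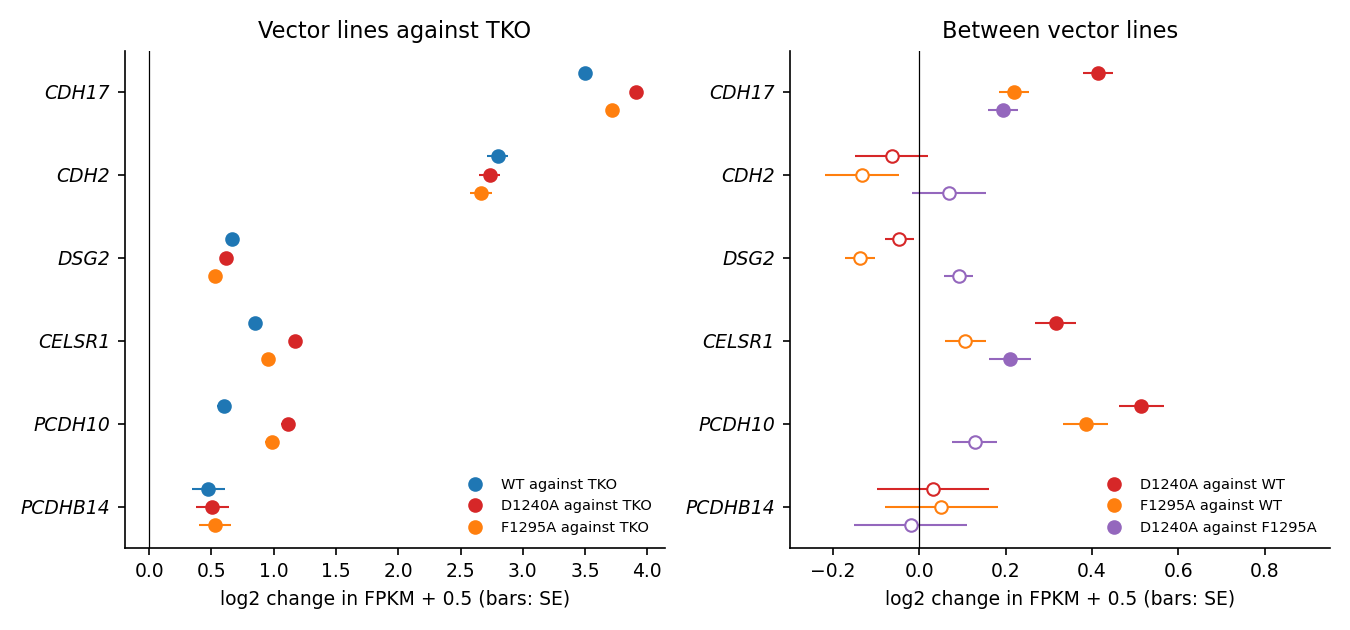
Log2 change of FPKM + 0.5 (horizontal axes, bars show the standard error) of the 6 genes in the vector lines against TKO (left) and among the vector lines (right), with filled circles for called and open circles for not called. On the left all values are positive, from 0.48 for PCDHB14 in WT to 3.91 for CDH17 in D1240A. On the right CDH17, CELSR1 and PCDH10 lie above 0 in D1240A against WT and CDH2, DSG2 and PCDHB14 lie near 0.

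Counted over the 6 genes, 6 were called higher in WT against TKO, 6 in D1240A against TKO and 6 in F1295A against TKO, and none was called lower. Those comparisons share the TKO libraries. Of all tested genes 25.9% were called higher and 23.9% lower in WT against TKO, 23.3% higher and 21.2% lower in D1240A against TKO, and 23.9% higher and 21.8% lower in F1295A against TKO. In D1240A against WT, CDH17, CELSR1 and PCDH10 were called higher, beside 8.22% of all genes called higher and 10.9% lower. In F1295A against WT, CDH17 and PCDH10 were called higher, beside 0.896% higher and 1.81% lower. In D1240A against F1295A, CDH17 and CELSR1 were called higher, beside 3.00% higher and 3.09% lower. Since the genes were chosen from these comparisons, their counts carry no weight against those shares. The median log2 change of the 6 genes was 0.76 in WT against TKO, 0.17 in D1240A against WT and 0.08 in F1295A against WT, beside medians over all tested genes of -0.005, 0.006 and -0.0008.

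The calls against TKO were the same for all 6 genes under every alternative that kept them in the test, and PCDHB14 fell below a filter at 1 FPKM. The genes were chosen for differing between these groups, so calls that held add no support for the differences. As deposited, the log2 changes in D1240A against TKO were 3.76 for CDH17, 2.61 for CDH2, 0.47 for DSG2, 1.03 for CELSR1, 0.97 for PCDH10 and 0.42 for PCDHB14. Among the vector lines, PCDH10 was called in D1240A against WT under every setting, and other calls were lost under some. Without rescaling, PCDH10 was the 1 gene of the 6 still called in D1240A against WT, and limma called 0 of the 6 in F1295A against WT (2 at an unadjusted p under 0.05), where all tested genes gave 89 calls. CDH17 and PCDH10 then had log2 changes of 0.19 and 0.36 in F1295A against WT. In D1240A against F1295A, CELSR1 was no longer called without D1240A replicate 2, F1295A replicate 2 or F1295A replicate 3, when 1 of the 6 genes, CDH17, remained called. The CDH17 call there was lost as deposited, when limma called 0 of the 6 (0 at an unadjusted p under 0.05). It was also lost with only the 2 compared groups in the fit, when limma called 0 (2 at an unadjusted p under 0.05).

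The sum of the 113 superfamily genes was 262.9 ± 2.93 FPKM in D1240A, 237.6 ± 3.22 in F1295A, 226.1 ± 1.497 in WT and 121.7 ± 2.15 in TKO (SD, n = 3 each). CDH17 made up 40.8% of it in D1240A, 39.5% in F1295A, 35.6% in WT and 5.49% in TKO. CLSTN1, which encodes the neuronal cargo adaptor calsyntenin 1, held 22.1%, 23.5% and 25.6% of the sum in D1240A, F1295A and WT, and 44.9% in TKO, with a nearly constant level of 54.6 to 58.0 FPKM by group mean. The most abundant cadherin transcript was therefore CDH17 in each vector line and CLSTN1 in TKO. DSG2 came second in TKO with 17.3% of the sum, and CDH2 held 0.842% there, against 4.44% in WT.

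The other superfamily genes did not all move with these 6. Of the 113 genes 16 passed the filter, 28 were listed at 0 in every library and 69 were under the filter, the highest single value among them being 0.639 FPKM. In WT against TKO 25.9% of all tested genes were called higher and 23.9% lower. Of the 10 tested genes outside the 6, 4 rose in that comparison (CELSR3, FAT1, FAT4 and PCDH18). Another 4 fell (CDH1, CDH24, CELSR2 and PCDH9), and CLSTN1 and CLSTN3 were not called. FAT1, FAT4 and PCDH18 reached 0.5 FPKM in no TKO library and CDH1 in no WT library, so they entered the test through the groups where they are higher, and their calls in this count carry no weight. The median of these 10 log2 changes was 0.12. PCDH18, a delta protocadherin, averaged 0.907 ± 0.161 FPKM in WT and 0.166 ± 0.0642 in TKO, a log2 change of 1.08. CELSR3, a polarity cadherin like CELSR1, averaged 2.79 ± 0.247 FPKM in WT and 1.20 in TKO, a log2 change of 0.95 with adjusted p = 2e-06. FAT4, a giant cadherin of planar cell polarity, averaged 0.574 ± 0.0154 FPKM in WT and 0.0352 in TKO. FAT1, a related giant cadherin, averaged 0.590 ± 0.0959 FPKM in WT and was listed at 0 in all TKO libraries.

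The genes that fell included relatives of those that rose. PCDH9, a delta protocadherin, averaged 2.38 ± 0.371 FPKM in WT and 4.47 in TKO, a log2 change of -0.77 with adjusted p = 0.00115. CDH24, a classical cadherin that binds catenins, averaged 5.34 ± 0.244 FPKM in WT and 7.89 in TKO, with a log2 change of -0.52 and adjusted p = 5.12e-05. CELSR2, the third seven-pass polarity cadherin, changed by -0.36 with adjusted p = 0.000547, opposite to CELSR1 and CELSR3. CDH1, which encodes E-cadherin, the main cadherin of epithelia, averaged 0.313 ± 0.111 FPKM in WT and 0.912 ± 0.310 in TKO, with a log2 change of -0.78. E-cadherin transcripts thus stayed near or below 1 FPKM in all groups while CDH17 and CDH2 reached far higher levels in the vector lines.

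Against WT, D1240A had 2 of these 10 genes higher and 1 lower, and F1295A had 0 of 10 called by limma, with 3 (CDH1, CDH24 and CELSR2) at an unadjusted p under 0.05. Of all tested genes 8.22% were called higher and 10.9% lower in D1240A against WT. In F1295A against WT it was 0.896% higher and 1.81% lower. PCDH9 averaged 4.95 ± 0.531 FPKM in D1240A, with a log2 change of 0.92 against WT and adjusted p = 0.00162. CDH24 averaged 7.62 ± 0.256 FPKM in D1240A, with a log2 change of 0.48 against WT and adjusted p = 0.000675. Both were close to their TKO means, and neither was called in D1240A against TKO, with log2 changes of 0.15 and -0.05. CELSR2 averaged 3.21 ± 0.109 FPKM in D1240A and 4.10 ± 0.0614 in WT, with a log2 change of -0.31 and adjusted p = 0.00555. In D1240A against F1295A, PCDH9 and CDH24 were called at adjusted p = 0.0389 and 0.0211, but CDH24 reached 0.0511 without D1240A replicate 2, 0.0506 without D1240A replicate 3 and 0.0677 without F1295A replicate 2. PCDH9 lost that call without D1240A replicate 2 or 3, without any 1 F1295A replicate, and without TKO replicate 2 or WT replicate 1 or 2, with an adjusted p of 0.0504 to 0.13.

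**Figure D3:**
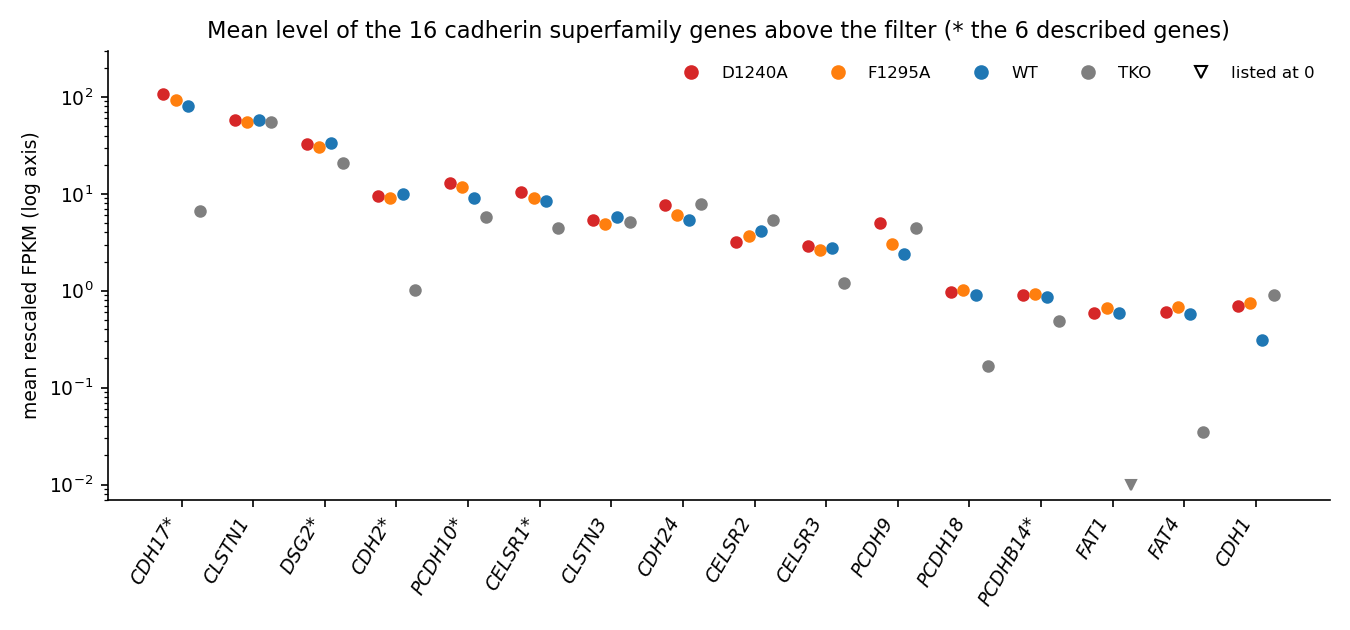
Mean rescaled FPKM (log axis) by group of the 16 cadherin superfamily genes that passed the filter, ordered by their WT mean, with asterisks on the 6 described genes and a triangle where every library of the group was listed at 0. CDH17, CDH2, PCDH18, FAT1 and FAT4 had their TKO means far below the vector lines, while CLSTN1 and CLSTN3 had nearly equal means in all groups, and CDH1, CDH24, CELSR2 and PCDH9 had higher means in TKO than in WT.

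The cytoplasmic partners of cadherins were counted next. The counts of this and the following lists in WT against TKO are to be read beside the 25.9% of all tested genes called higher and 23.9% called lower. Of 25 catenin and junction plaque genes 15 were tested, of which 6 rose and 1 fell in WT against TKO, with a median log2 change of 0.10. PKP2, plakophilin 2, which links desmosomal cadherins such as DSG2 to keratin filaments, averaged 22.7 ± 0.333 FPKM in WT and 7.90 ± 0.301 in TKO, a log2 change of 1.47 with adjusted p = 3.07e-10. JUP, plakoglobin, which sits in the same plaque, moved the other way, with 4.36 ± 0.0613 FPKM in WT and 12.2 ± 0.0679 in TKO, a log2 change of -1.39 with adjusted p = 7.62e-09. TJP1, the tight junction scaffold ZO-1, changed by 0.61 with adjusted p = 0.000389. CTNNA1, alpha-catenin, was not called at 0.10 (adjusted p = 0.0878, and 0.00933 without TKO replicate 3). CTNNB1, beta-catenin, the partner of N-cadherin, changed by 0.09 with adjusted p = 0.0413, a call lost without TKO replicate 1 (0.165), TKO replicate 2 (0.11), WT replicate 1 (0.11) or WT replicate 2 (0.122). CTNND1, p120 catenin, changed by 0.07 with adjusted p = 0.627. In D1240A and F1295A against TKO the log2 changes were 0.51 and 0.29 for CTNND1, with adjusted p = 0.00294 and 0.0522, and 0.19 and 0.14 for CTNNB1, with adjusted p = 0.000434 and 0.00296. As deposited CTNNB1 was called in neither, with adjusted p = 0.681 and 0.406.

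Among the vector lines the plaque genes gave 3 rises and 3 falls in D1240A against WT, beside 8.22% of all tested genes called higher and 10.9% lower. PKP2 averaged 17.4 ± 0.695 FPKM in D1240A, a log2 change of -0.37 against WT with adjusted p = 0.000212, in a line where DSG2 differed from WT by -0.05. VCL, vinculin, changed by -0.39 with adjusted p = 0.00234, and PKP4, a related armadillo protein, by -0.41 with adjusted p = 0.00514. CTNND1 changed by 0.44 with adjusted p = 0.0181, a call lost without D1240A replicate 3 (0.07), WT replicate 1 (0.0741) or WT replicate 3 (0.0537), and as deposited (0.123). In F1295A against WT, where 0.896% of all tested genes were called higher and 1.81% lower, 1 of the 15 genes, PKP4, was called, at -0.35 with adjusted p = 0.0456, and the call was lost when any library other than D1240A replicate 2 was left out (adjusted p of up to 0.157).

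Of 19 proteases that mature or shed cadherins 17 were tested, of which 6 rose and 7 fell in WT against TKO. MMP9, a secreted gelatinase, averaged 0.611 ± 0.134 FPKM in WT and 6.14 ± 0.490 in TKO, a log2 change of -2.58 with adjusted p = 3.66e-09. ADAM8, a membrane protease, changed by -0.78 with adjusted p = 7.47e-07. PCSK6, a proprotein convertase, changed by 1.63 with adjusted p = 5.31e-06. In D1240A against WT, which shares the WT libraries with that comparison, the log2 changes were 0.84 for MMP9, 0.47 for ADAM8 and -1.01 for PCSK6, with adjusted p = 0.000309, 0.000366 and 0.00134.

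The partners of CELSR1 and PCDH10 were mixed. Of 19 planar cell polarity genes 16 were tested, and 6 rose and 4 fell in WT against TKO. ROR2, a WNT5A receptor, changed by -1.38, and PRICKLE1, a core polarity protein, by 0.92. Of 11 WAVE complex genes, which encode the actin regulator that PCDH10 binds, 10 were tested, and 5 rose and 3 fell. NCKAP1L, the blood cell form of a WAVE subunit, averaged 7.37 ± 0.250 FPKM in WT and 0.157 ± 0.0568 in TKO, a log2 change of 3.59, while BRK1, another subunit, changed by -0.75 with adjusted p = 8.45e-08. PRICKLE1, NCKAP1L and the WAVE gene WASF3 reached 0.5 FPKM in no TKO library and entered the test through the vector lines, so their calls in these counts carry no weight. ROR2 reached 0.5 FPKM in 2 WT libraries, all 3 TKO libraries and no D1240A or F1295A library. It entered the test through TKO, where it is higher, so its call carries no weight either. Of the 4 enzymes that place O-mannose on cadherins all 4 were tested and 2 rose, TMTC4 by 0.80 and TMTC2 by 0.41, with adjusted p = 5.71e-07 and 0.00658.

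Genes known to act on cadherin genes were counted against the same shares. Of 21 transcription factors 9 were tested, and 4 rose and 4 fell in WT against TKO. ZEB2, which represses CDH1 through E-boxes, averaged 1.58 ± 0.105 FPKM in WT and 3.87 in TKO, a log2 change of -1.07 with adjusted p = 6.83e-06, and it changed by 0.60 in D1240A against WT with adjusted p = 0.00313. TCF4, an E-protein that binds E-boxes, changed by -0.69 with adjusted p = 3.08e-07. TWIST1, an E-box factor linked to CDH2 and known in t(4;14) myeloma, changed by 0.53 with adjusted p = 0.000212. Of 17 regulators of the protocadherin clusters all 17 were tested, and 3 rose and 4 fell, among them the cohesin genes STAG2 at -0.63 and SMC3 at 0.37 and the DNA methyltransferase gene DNMT3B at -0.77, with adjusted p = 4.81e-08, 1.23e-06 and 4.12e-06.

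The genes whose pattern over the 12 libraries was most like each of the 6 were taken from 9851 protein-coding genes that averaged 2 FPKM or more, by the root mean square difference in log2 level after each gene's own mean was subtracted. For CDH17 they were LCP2, a signalling adaptor of blood cells, at 0.0894, BCHE, which encodes butyrylcholinesterase, at 0.153, and NCKAP1L at 0.16. LCP2 averaged 10.1 ± 0.359 FPKM in D1240A, 9.06 ± 0.386 in F1295A, 7.84 ± 0.262 in WT and 0.288 ± 0.0829 in TKO, the same order of groups as CDH17. For CDH2 they were GPR15, a leukocyte homing receptor, at 0.106, ALDH1L2, a mitochondrial folate enzyme, at 0.136, and SNX9, an endocytic sorting protein, at 0.137. For CELSR1 they were LRRN1, a neuronal leucine-rich repeat protein, at 0.0666, SQLE, an enzyme of sterol synthesis, at 0.0876, and VAMP8, a vesicle fusion protein, at 0.108. PCDH10 was nearest to LRRN1 at 0.11, CELSR1 at 0.119 and VAMP8 at 0.131. DSG2 and PCDHB14 spanned less than 1 log2 unit between group means, at 0.66 and 0.53, and were not matched. With 4 groups, these likenesses describe the group means for the most part. In TKO, LCP2 (0.288 FPKM), BCHE (0.489), NCKAP1L (0.157) and SNX9 (0.342) had means below the 0.5 added before the log. Their likeness to CDH17 or CDH2 therefore depends on that added value.

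The chromosomal surroundings of the 6 genes were uneven. Counts of nearby genes, here and below, are for WT against TKO. They stand beside 25.9% of all tested genes called higher and 23.9% called lower. CDH17 lies on chromosome 8 at 94127171 to 94217303 on the minus strand (GRCh38, GENCODE release 29), and the tested gene next to it, GEM, 32 kb away, had nearly the same change against TKO. GEM, a small GTP-binding protein that inhibits calcium channels, read 31.01, 30.83 and 29.96 FPKM in D1240A, 32.3, 34.64 and 32.07 in F1295A, 32.83, 31.34 and 31.29 in WT, and 2.601, 2.646 and 2.465 in TKO. Its log2 change was 3.40 in WT against TKO with adjusted p = 1.81e-13, but -0.06 in D1240A against WT and 0.05 in F1295A against WT, with adjusted p = 0.407 and 0.623. GEM thus differed from TKO as CDH17 did, and was not called among the vector lines, where CDH17 was. Of the 25 other tested genes within 2000 kb of CDH17, 8 rose and 4 fell, with a median of 0.29, and none but GEM had a log2 change above 0.96.

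CDH2 lies at 27950966 to 28177446 on the minus strand and DSG2 at 31498043 to 31549008 on the plus strand of chromosome 18. Of the 10 other tested genes within 2000 kb of DSG2, 4 rose in WT against TKO and 6 were not called, with a median of 0.44. The nearest, B4GALT6, a lactosylceramide synthase gene 73.2 kb away, averaged 1.79 ± 0.201 FPKM in WT and 0.243 ± 0.0784 in TKO, a log2 change of 1.63. It reached 0.5 FPKM in no TKO library and entered the test through the vector lines, so its call in that count carries no weight. B4GALT6 was lower in D1240A than in WT, at 0.658 ± 0.150 FPKM against 1.79 ± 0.201, a log2 change of -0.99 with adjusted p = 0.000868, while DSG2 changed by -0.05. The other desmosomal cadherin genes gave no tested gene: 3 were listed at 0 in every library and the highest value in the remaining 3 was 0.0399 FPKM.

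CELSR1 lies on chromosome 22 at 46360834 to 46537170 on the minus strand. Its tested neighbour TRMU, a transfer RNA modifying enzyme gene 3.5 kb away, changed by -0.29 with adjusted p = 0.00276, opposite to CELSR1. GRAMD4, 38.8 kb away on the other side, changed by 0.40 with adjusted p = 0.0342, and that call was lost without TKO replicate 2 (0.125), TKO replicate 3 (0.116), WT replicate 1 (0.135) or WT replicate 3 (0.0589). In D1240A against TKO, GRAMD4 changed by 0.73 with adjusted p = 0.00141. Of the 23 other tested genes within 2000 kb, 3 rose and 7 fell. PCDH10 lies on chromosome 4 at 133149315 to 133208606 on the plus strand, and the next tested gene to its right was PCDH18, 4310.3 kb away. PCDHB14 lies on chromosome 5 at 141222932 to 141227759 on the plus strand, and its tested neighbours ZMAT2 and TAF7 changed by -0.11 and 0.01, neither of which was called. The log2 changes of CDH17 and CDH2 in WT against TKO were 3.26 and 2.65 above the median of 50 neighbouring tested genes. Annotated genes that overlap the 6 genes on either strand had at most 0.42 FPKM as deposited in any library.

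**Figure D4:**
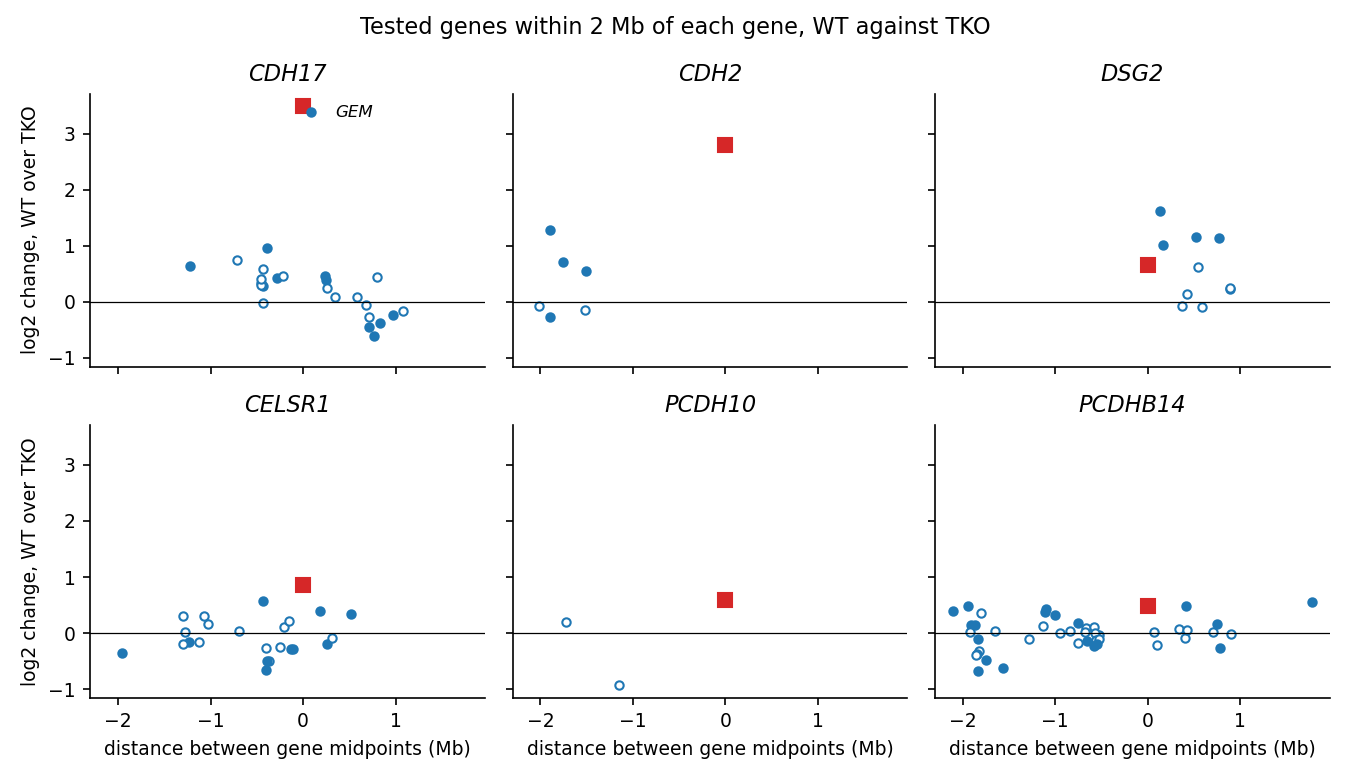
Log2 change in WT against TKO (vertical axis) of the tested genes within 2 Mb of each of the 6 genes, by the distance between gene midpoints (horizontal axis), with red squares for the named gene, blue circles for its neighbours, filled where called and open where not. GEM stands beside CDH17 at 3.40, and 4 called genes to the right of DSG2 lie above 0, whereas the neighbours of CELSR1 and PCDHB14 lie on both sides of 0.

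The labelled plasma cell identity was checked against markers. JCHAIN, XBP1, IRF4, PRDM1, TNFRSF17 and MZB1 were abundant in all groups, but SDC1, the syndecan commonly used to define plasma cells, averaged 0.235 FPKM in WT and 4.01 in TKO, and CD38 and CD79A averaged under 1 FPKM in every group. The summed level of 10 plasma cell markers was 3822 to 4147 FPKM in D1240A, 4637 to 5045 in F1295A, 4680 to 4913 in WT and 2337 to 2550 in TKO, so it differed between the groups compared, and its part in the cadherin differences was not tested. Most of that sum was JCHAIN, which averaged 3146 FPKM in D1240A, 3913 in F1295A, 3788 in WT and 1730 in TKO. By mean, TNFRSF17, XBP1, PRDM1, IRF4 and SLAMF7 were also higher in WT than in TKO. MZB1, SDC1, CD38 and CD79A were lower in WT. In bulk RNA, fewer cells with a transcript and less transcript per cell cannot be told apart. Of 13 intestinal epithelium markers 11 were below 0.5 FPKM in every library, and CDX1, CDX2, KRT19, KRT20 and MUC2 were listed at 0 in all 12. Their sum was 4.60 to 5.34 FPKM in D1240A, 4.08 to 5.04 in F1295A, 5.37 to 5.72 in WT and 7.35 to 9.06 in TKO. Its 2 markers above that level moved opposite ways, CLDN3 averaging 2.14 FPKM in WT and 6.01 in TKO and EPCAM 2.72 in WT and 1.33 in TKO. Of 10 stromal markers 6 were below 0.5 FPKM in every library, with COL1A2 and COL3A1 listed at 0 in all. Their sums were 4.53 to 5.92 FPKM in D1240A, 3.94 to 4.74 in F1295A, 3.72 to 4.43 in WT and 3.32 to 3.97 in TKO. Of 9 neural markers 6 were below 0.5 FPKM in every library, with S100B listed at 0 in all. Their sums were 5.53 to 6.05 FPKM in WT and 3.79 to 4.43 in TKO, mostly SYT1, which averaged 3.54 in WT and 3.58 in TKO. MAP2 averaged 0.992 FPKM in WT, 0.581 in D1240A, 0.576 in F1295A and 0.121 in TKO. SNAP25 averaged 0.980, 0.345, 0.523 and 0.0288 in the same order. Of 8 T cell and myeloid markers 7 were below 0.5 FPKM in every library.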

How the data were processed

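Polyadenylated RNA was measured in 12 libraries. The tools that the submitters' processing notes name are Trimmomatic 0.36 and FastQC 0.11.4 for read quality, STAR 2.7.9a as aligner with the build GRCh38, RSEM 1.3.1 for quantification, and DESeq2. The authors deposited 1 FPKM value per gene and library, scaled by gene length and mapped total, for 60504 features. No source used here gives the annotation release, the strand setting or the read totals, and without a strand setting antisense reads cannot be told apart. FPKM are not counts, so no count test was used. Depth was estimated from the smallest steps of 5067 short genes with an assumed fragment of 200 bases.

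What follows was computed here. Features of structural RNA classes (7089) were dropped. Libraries were brought to 1 scale by the mean log2 ratio after 30% was trimmed from each side. The 14391 genes with 0.5 FPKM or more in 3 or more libraries entered 1 model of all 12 libraries in limma 3.58.1 (R 4.3.3; other steps in Python 3.11.15), on log2(FPKM + 0.5) with group as factor and a variance trend, and Benjamini-Hochberg adjustment ran over all tested genes. A fold on this scale understates the change of low genes, and rescaling cannot show a change shared by all genes. The fit was tested on simulated data. Names and coordinates came from GENCODE release 29 and promoters from RefSeq (GRCh38.p14).

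The 6 genes, the gene lists and the tests were chosen with earlier results of these data known. The genes named are the 6, every other superfamily gene past the filter, from each of 7 other lists the 3 called genes of smallest adjusted p in each of 3 comparisons with 4 catenin genes, the 3 genes most like each of the 6, the nearest tested gene on each side and NSD2. Of the list genes and the nearest genes a part is named. Group means are ± SD with n = 3. Alternatives were other scalings, pseudocounts and filters, structural RNAs kept, a replicate block, only the compared groups, neighbour medians subtracted and each library left out.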

Additional observations from a re-analysis of the deposited data

How the results depend on the processing

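None of the 786 alternative values of the 36 log2 changes of the 6 genes reversed a called change. Of them 61 moved by more than the replicate spread, and 10 changed sign, all in changes that were not called. Calls of the 6 genes against TKO held wherever these genes were tested, and among the vector lines that of PCDH10 in D1240A against WT held in every setting while others were lost in some. Since the 6 genes were chosen for their differences, calls that held add no support for them. With the values as deposited, calls numbered 1608 in D1240A against WT (249 higher and 1359 lower, against 1183 and 1573 with rescaling), 89 in F1295A against WT and 63 in D1240A against F1295A, and limma called 0 superfamily genes in F1295A against WT and 0 in D1240A against F1295A (3 each at an unadjusted p under 0.05). The construction of this setting leaves the low values of D1240A replicate 2 in place. It turned CTNNB1 in D1240A against WT to -0.0146, TAF7 to -0.0041 there and -0.0213 against TKO, and SETDB1 in D1240A against TKO to -0.0391. With no filter 17 of 85 superfamily genes were called in D1240A against TKO, beside 6157 of all 29605 genes. In D1240A against F1295A that setting called 4 of 85 superfamily genes and 440 of all 29605. With only the compared groups in the fit, D1240A against F1295A gave 102 of 13568 genes and 0 of 16 superfamily genes. Of those 16, 4 were at an unadjusted p under 0.05 in limma. Leaving out 1 library kept 14241 to 14332 tested genes and gave 1723 to 2833 calls in D1240A against WT and 149 to 514 in F1295A against WT. In D1240A against F1295A it gave 310 to 1225 genes and 1 to 4 of 16 superfamily genes. Where not stated, the cause was not tested. Same-numbered libraries of different groups did not deviate together (correlations of -0.053 to 0.085 in 18 pairs, -0.114 to 0.08 in 36 other pairs). No pairing by number was therefore seen, but these values cannot show whether same-numbered cultures were handled together. With a replicate block D1240A against F1295A gave 525 of 14391 genes and 2 of 16 superfamily genes, 1 of them among the 6. Among the 6 genes PCDHB14 had the fewest estimated fragments.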
